A study of Homo sapiens with 12 samples.

Results

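RPMI8226 is a human multiple myeloma line grown from malignant plasma cells, and it is known for a chromosomal rearrangement that joins the transcription factor gene MAF to an immunoglobulin locus. The response of this line to the BET inhibitor JQ1 was followed by RNA sequencing. Cells labelled as wild type were given 1 µM JQ1, dissolved in DMSO, for 72 h. Control cells, also labelled as wild type, received the same volume of DMSO, and their labels give no time. Libraries were chosen by their line and treatment labels: the 2 JQ1 and the 2 DMSO libraries of RPMI8226 are 4 of the 12 in the series. The other 8, from KMS-11 and KMS-12, served only in the estimate of the spread between replicates. The labels do not say whether replicate libraries came from separate cultures. The p-values therefore cover only how far these libraries differ, and that spread may be technical.

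BET proteins, BRD2 and BRD3 among them, bind acetylated histones through paired bromodomains and bring the elongation kinase P-TEFb to promoters and enhancers. JQ1 fills the acetyl-lysine pocket and displaces them from chromatin. In myeloma, BET inhibition is known for loss of transcription from very active enhancers, among them those that drive MYC and plasma cell genes. Plasma cells are built for antibody secretion, with a large endoplasmic reticulum under the control of IRF4, PRDM1 and XBP1.

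The JQ1 libraries held 19896314 and 15424512 counts and the DMSO libraries 18515363 and 21728530. Levels are in CPM, the usual unit for a gene's share of the reads of a library, computed with TMM-scaled library sizes, and 3 counts, the upper limit that 0 reads allow, corresponded to between 0.124 and 0.178 CPM in a library. Such floors cover counting error only. No spike-in was used, so levels are relative amounts, and in bulk RNA fewer cells of a kind and less RNA per cell cannot be told apart. The label was checked against plasma cell markers. MZB1, a chaperone of antibody-secreting cells, had 1053 and 820.1 CPM with JQ1, against 1184 and 963 CPM with DMSO. The syndecan SDC1 had 429 and 319 CPM with JQ1, against 239 and 193 CPM with DMSO. Most other markers of the set fell with JQ1, as described further on: TNFRSF17, CD38, SLAMF7, IRF4, JCHAIN, POU2AF1, GPRC5D and FCRL5. PRDM1 and XBP1 changed little. The lambda light chain gene IGLC2 had 1779.7 and 1929 CPM with JQ1, against 2295 and 1939.9 CPM with DMSO, and MAF (ENSG00000178573) had 1244 and 913 CPM with JQ1, against 1176 and 964 CPM with DMSO. Of the lists of markers of other cells, that for B cells summed to 20.6 and 16.3 CPM in the JQ1 libraries and 72.2 and 54.2 CPM in the DMSO libraries. The sum for myeloid cells was 3.94 and 6.24 CPM in the JQ1 libraries and 26.5 and 29.4 CPM in the DMSO libraries, and CSF1R, a defining receptor of macrophages, had 1 JQ1 and 62 DMSO reads. The sum for T and NK cells was 90.9 and 58.99 CPM in the JQ1 libraries and 94.1 and 87.8 CPM in the DMSO libraries, most of it CD8B, while CD3E, a chain of the T cell receptor complex, had 3 JQ1 and 54 DMSO reads. The JQ1 and DMSO libraries lay apart on the first principal component, which held 87.2% of the variance of log2 CPM. The 2 JQ1 libraries differed from each other in the interferon response genes, which are described by library further on. In 33 of 42 of them the JQ1 libraries stood 2-fold or more apart, against 190 of 14443 genes in all.

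JQ1 changed the level of a large part of the expressed genes, with more and larger falls than rises. In edgeR's quasi-likelihood test at a Benjamini-Hochberg adjusted p under 0.05, 7574 of 23493 genes tested (32.2%) were called, 3195 higher (13.6%) and 4379 lower (18.6%). Changes of 2-fold or more were lower in 2629 genes (11.2%) and higher in 787 (3.35%). At 16-fold or more they were lower in 404 and higher in 19. Among the 16088 genes with a mean of at least 1 CPM over the 4 libraries, 3023 rose (18.8%) and 3558 fell (22.1%), and their median log2 fold change was -0.00119. In 5935 of these genes (36.9%) both JQ1 libraries were above both DMSO libraries, and in 6113 (38.0%) both were below. The counts given for gene lists, with percentages of the members tested, are set against these shares of expressed genes, 18.8% higher and 22.1% lower. The number of calls moved most with the threshold: against a change of 1.5-fold, 592 genes were called higher and 2006 lower. The higher count was 2114 without JQ1 library 1, 2076 without DMSO library 1 and 2031 without DMSO library 2.

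**Figure D1:**
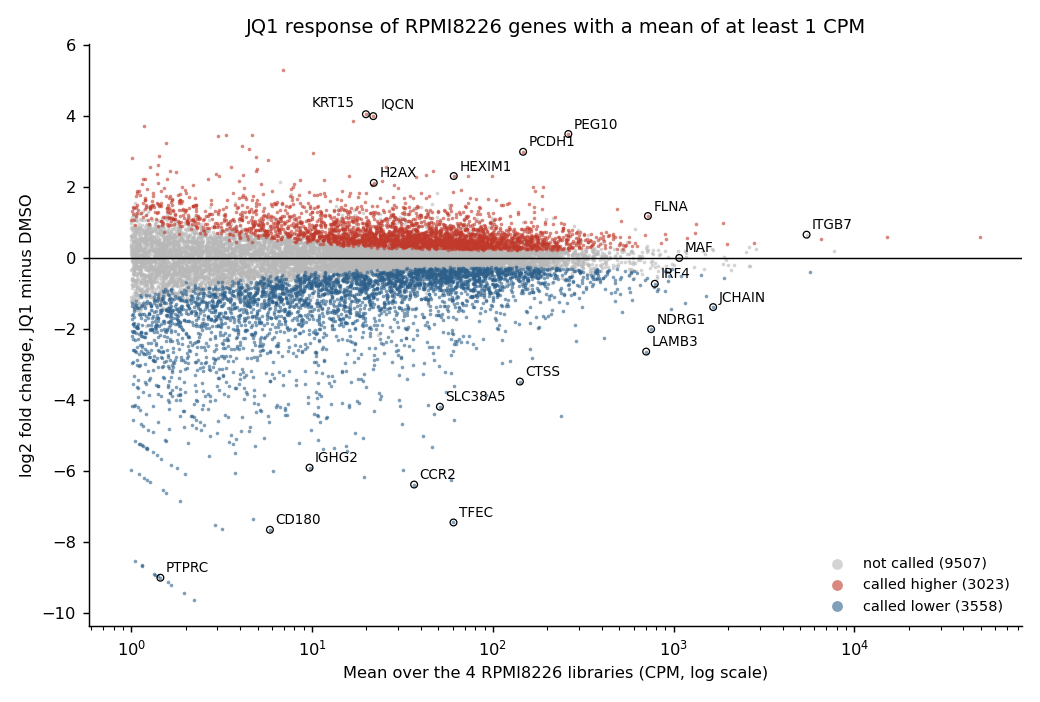
Log2 fold change of JQ1 against DMSO (vertical axis) against the mean of the 4 RPMI8226 libraries (CPM, log scale), 1 point for each gene with a mean of at least 1 CPM. Red points are the 3023 genes called higher and blue points the 3558 called lower; the falls reach much further from 0 than the rises, while MAF lies at 0.01.

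The share of genes called varied with level. Between 1 and 10 CPM the median standard error was 0.323 on the log2 scale, with 575 of 6186 genes higher and 1447 lower. Between 10 and 100 CPM the standard error was 0.136, with 1915 of 7830 higher and 1664 lower. Between 100 and 1000 CPM 524 of 2031 were higher and 440 lower. For calls of any size, the excess of falls in this fit thus lay in genes under 10 CPM. In a refit to genes with a mean of at least 10 CPM, 2525 were called lower and 2271 higher. Falls of 2-fold or more outnumbered such rises above 10 CPM too, with 71 against 32 between 100 and 1000 CPM. Rises of 2-fold or more numbered 331 between 1 and 10 CPM and 252 between 10 and 100 CPM, against 1165 and 570 falls of that size. By class, 2576 of 11899 protein-coding genes with at least 1 CPM rose (21.6%) and 2848 fell (23.9%). Among long non-coding RNA genes 300 of 2713 rose (11.1%) and 529 fell (19.5%). Of the small and structural RNAs 21 of 276 were higher (7.61%) and 5 lower (1.81%). Both of these last shares were far under those of expressed genes, 18.8% higher and 22.1% lower.

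The largest rises among named genes with at least 1 CPM came in genes of varied function. IQCN, named for its calmodulin-binding IQ motif, had 49.4 and 32.8 CPM with JQ1, against 2.76 and 2.36 CPM with DMSO, a log2 fold change of 4.01 (SE 0.22, Benjamini-Hochberg adjusted p = 3.25e-09 by edgeR). PEG10 (ENSG00000242265; chromosome 7, 94656325 to 94669695, plus strand, GRCh38), an imprinted gene descended from a retrotransposon Gag, had 486 and 476 CPM with JQ1, against 48.6 and 36.2 CPM with DMSO, and rose by 3.51 (SE 0.23, Benjamini-Hochberg adjusted p = 3.04e-06 by edgeR). In both, the JQ1 libraries lay many-fold above the DMSO libraries. MAP1A, a microtubule-associated protein, had 6.52 and 5.70 CPM under JQ1 and 0.592 and 0.497 CPM under DMSO and rose by 3.49. FAM222A rose by 3.47, with 11.5 and 5.47 CPM under JQ1 and 0.79 and 0.745 CPM under DMSO. The V-ATPase subunit gene ATP6V1C2 rose by 3.15, the membrane lipid kinase adaptor EFR3B by 3.09, the cilia gene DRC3 by 2.89 and the ephrin ligand EFNB2 by 2.86. PCDH1, a protocadherin of cell contacts, had 305 and 217 CPM with JQ1, against 34.2 and 31.1 CPM with DMSO, an 8.02-fold rise (Benjamini-Hochberg adjusted p = 0.00283 by edgeR). The fitted value of this group was highest for the keratin KRT15, at 4.06 (SE 1.04), but its JQ1 libraries differed from each other, with 62.95 and 11.9 CPM with JQ1, against 3.16 and 1.41 CPM with DMSO. Its call was lost without DMSO library 1 (0.14) or DMSO library 2 (0.2) and in the RPMI8226 libraries alone (0.162), with edgeR's Benjamini-Hochberg adjusted p in parentheses, and without JQ1 library 1 its log2 fold change was 2.40.

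The largest falls ended below the floor of detection. In 177 of the genes called lower no read was found in either JQ1 library, against 14 called higher with no DMSO read. PTPRC, the leukocyte phosphatase CD45, had 0 reads under JQ1 and 129 under DMSO, at least 36.9-fold lower (floor of 3 counts over the group). CCL1, a chemokine, had 0 JQ1 and 139 DMSO reads (at least 39.8-fold lower), KLHL30 0 JQ1 and 146 DMSO reads (at least 41.8-fold), the hyaluronan-binding protein gene CEMIP 0 JQ1 and 120 DMSO reads (at least 34.4-fold), RELN, which encodes the matrix protein reelin, 0 JQ1 and 99 DMSO reads (at least 28.3-fold), and the protease gene PRSS22 0 JQ1 and 93 DMSO reads (at least 26.6-fold). Neither JQ1 library held a read of these 6 genes, whereas both DMSO libraries did. CD180, a Toll-like receptor homologue of B cells, had 2 JQ1 and 511 DMSO reads, a log2 fold change of -7.65 (SE 0.59, Benjamini-Hochberg adjusted p = 2.52e-07 by edgeR), and the nicotinic receptor subunit gene CHRNA6 1 JQ1 and 276 DMSO reads (-7.64). TFEC (ENSG00000105967; chromosome 7, 115935148 to 116159896, minus strand), a basic helix-loop-helix factor related to the lysosomal regulator TFEB, had 0.516 and 0.891 CPM with JQ1, against 126 and 115 CPM with DMSO. At -7.45 (SE 0.23, Benjamini-Hochberg adjusted p = 2.28e-11 by edgeR) it was among the best measured of these losses, with 5333 DMSO reads.

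Among the 8 most abundant genes with rises of 2-fold or more were PEG10 and 3 genes of the cytoskeleton and its membrane links. FLNA, which crosslinks actin, had 929 and 1077 CPM with JQ1, against 417 and 461 CPM with DMSO (1.19 on the log2 scale, as are the values in parentheses from here on). SPTAN1, a spectrin, had 741 and 659 CPM with JQ1, against 278 and 255 CPM with DMSO (1.39), and CSRP1, a LIM protein, 337 and 244 CPM with JQ1, against 86.2 and 84.1 CPM with DMSO (1.77). CBX5, the heterochromatin protein HP1 alpha, rose by 1.05, the maintenance DNA methyltransferase DNMT1 by 1.02, the cold-inducible RNA-binding protein CIRBP by 1.16 and the hydrolase ABHD3 by 2.02. For ABHD3 the values were 371 and 238 CPM with JQ1, against 83.1 and 67.6 CPM with DMSO, and in all 8 genes both JQ1 libraries were above both DMSO libraries. On the other side, LAMB3, a laminin chain, had 157 and 236 CPM with JQ1, against 1236 and 1191 CPM with DMSO, and fell by 2.63 (SE 0.29, Benjamini-Hochberg adjusted p = 0.00131 by edgeR). NDRG1, a gene induced by hypoxia, had 289.6 and 312 CPM with JQ1, against 1233 and 1168 CPM with DMSO, and fell by 2.00. Falls were also called for the lysosomal endopeptidase LGMN (-1.51), the titin gene TTN (-1.42), JCHAIN (-1.38), the fatty acid desaturase SCD (-1.26), the cargo receptor LMAN1 (-1.19) and ERN1 (-1.06), with the JQ1 libraries below the DMSO libraries in each.

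**Figure D2:**
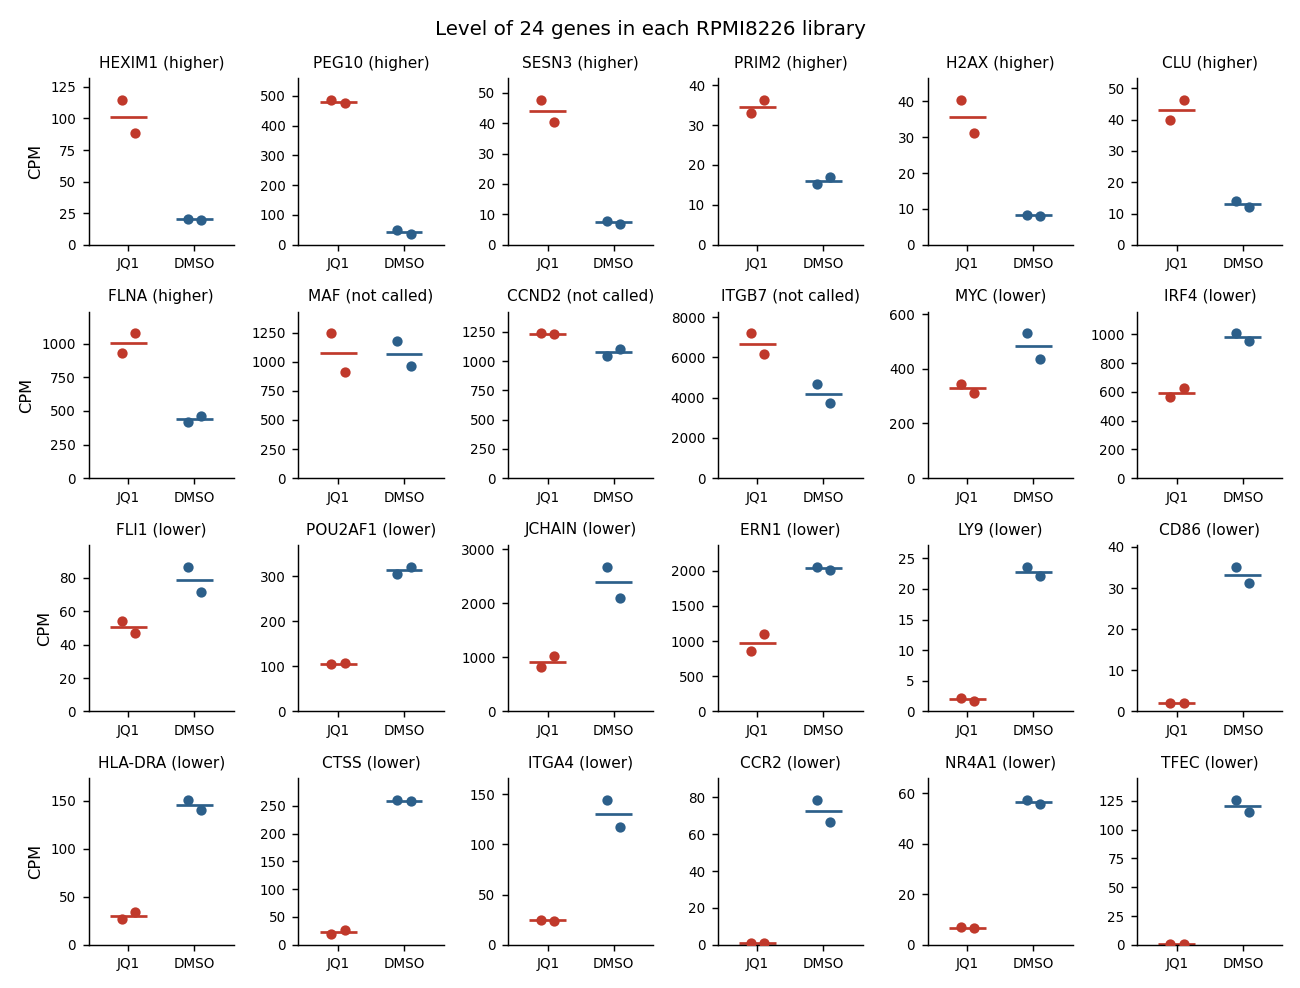
Level of 24 genes in each RPMI8226 library (CPM, linear axes from 0), with JQ1 in red, DMSO in blue, 1 point for each library and a bar at the mean of 2; the call is given above each panel. The points of the 2 treatments are apart in the called genes and also in CCND2 and ITGB7, which were not called, while those of MAF overlap.

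The P-TEFb inhibitor HEXIM1 rose severalfold, and the BET gene BRD2 rose by a small amount. HEXIM1 (ENSG00000186834; chromosome 17, 45148502 to 45152101, plus strand), which holds P-TEFb inactive together with the 7SK RNA, had 115 and 88.2 CPM with JQ1, against 20.7 and 19.9 CPM with DMSO, a log2 fold change of 2.32 (SE 0.13, Benjamini-Hochberg adjusted p = 1.09e-09 by edgeR). BRD2 had 376 and 308 CPM with JQ1, against 259 and 248 CPM with DMSO, and rose by 0.43 (SE 0.10, Benjamini-Hochberg adjusted p = 0.00358 by edgeR), a call lost without JQ1 library 1, where its log2 fold change was 0.28 (edgeR, Benjamini-Hochberg adjusted p = 0.0807). BRD3 had 85.8 and 83.3 CPM in JQ1 cells and 78.8 and 73.2 CPM in DMSO cells (0.16) and was not called. In the list of BET proteins and elongation factors 13 of 31 (41.9%) were called higher (6 without JQ1 library 1 and 7 without DMSO library 1) and 4 (12.9%) lower (2 without JQ1 library 1, 1 without JQ1 library 2 and 0 without DMSO library 1). Their median was 0.16, beside -0.0507 over all genes tested with a read. Beside HEXIM1 the rises were small: CDK9, the kinase of P-TEFb, rose by 0.45 and the elongation factors MLLT1 and MLLT3 by 0.44 and 0.64. Of the subunits of Mediator, the complex that links enhancers to polymerase, 6 of 32 (18.8%) rose and 4 (12.5%) fell, at or under the shares of expressed genes. MED14, its scaffold subunit, rose by 0.59, with 163 and 164 CPM under JQ1 and 105 and 113 CPM under DMSO, while MED24 (-0.84), MED12 (-0.72) and MED22 (-0.59) fell. Among 37 chromatin modifiers 6 (16.2%) rose and 8 (21.6%) fell (5 without DMSO library 1), shares near those of expressed genes. They included ZMYND8, a bromodomain protein, which had 64.9 and 72.4 CPM with JQ1, against 171 and 175 CPM with DMSO and fell by 1.33, the deacetylase HDAC9, which fell by 0.96, and its relative HDAC1, which rose by 0.75. Of 9 genes tested from a list of blood markers of BET inhibitor exposure, 4 (44.4%) fell and 3 (33.3%) rose. Among expressed genes the shares were 22.1% and 18.8%. HEXIM1 was among the rises and ZMYND8 and CD180 among the falls.

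Plasma cell identity genes fell widely. Of 28 surface and identity genes tested 21 (75%) fell and 2 (7.14%) rose (1 without JQ1 library 1, JQ1 library 2, DMSO library 1 or DMSO library 2), with a median log2 fold change of -1.62, against 22.1% lower and 18.8% higher among expressed genes. TNFRSF17, the receptor BCMA that receives survival signals, had 0.797 and 0.713 CPM with JQ1, against 33.2 and 27.2 CPM with DMSO (-5.30). SLAMF7 had 0.141 and 0.178 CPM with JQ1, against 6.57 and 8.11 CPM with DMSO (-5.50), and the orphan receptor GPRC5D 0.469 and 0.713 CPM with JQ1, against 4.99 and 4.68 CPM with DMSO (-3.04). For these 3 targets of myeloma immunotherapy both JQ1 libraries were below 1 CPM. CD38, an ecto-enzyme and antibody target, had 88.9 and 98.8 CPM with JQ1, against 327 and 247 CPM with DMSO, and fell by 1.61 (SE 0.20, Benjamini-Hochberg adjusted p = 0.000195 by edgeR). The Fc receptor homologue FCRL5 fell by 2.07, while SDC1 was not called (0.79), except as higher with the RPMI8226 libraries alone (edgeR, Benjamini-Hochberg adjusted p = 0.00477) and with the replicate block (0.00832, by the same test). LY9, a SLAM family receptor, had 2.20 and 1.72 CPM with JQ1, against 23.6 and 22.1 CPM with DMSO, and fell by 3.52 (SE 0.17, Benjamini-Hochberg adjusted p = 2.66e-10 by edgeR). CD86, which costimulates T cells, had 2.02 and 2.08 CPM with JQ1, against 35.2 and 31.3 CPM with DMSO, and fell by 4.02. The checkpoint molecule CD276 fell by 2.11, and the survival kinase PIM2 fell by 0.93, with 632 and 605 CPM under JQ1 and 1241 and 1116 CPM under DMSO.

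Of the transcription factors of plasma and B cells, 10 of 23 (43.5%) fell and 2 (8.70%) rose (1 without JQ1 library 1, DMSO library 1 or DMSO library 2), with a median of -0.34, against 22.1% lower and 18.8% higher among expressed genes. IRF4, on which myeloma cells are known to depend, had 562 and 628 CPM with JQ1, against 1006 and 951 CPM with DMSO, and fell by 0.72 (SE 0.11, Benjamini-Hochberg adjusted p = 9.45e-05 by edgeR). POU2AF1, the octamer coactivator, had 106 and 107 CPM with JQ1, against 305 and 321 CPM with DMSO, and fell by 1.56. The octamer factor POU2F2 (-2.14) and the runt factor RUNX3 (-0.89) also fell. PRDM1 had 143 and 129 CPM with JQ1, against 117 and 101 CPM with DMSO (0.32) and XBP1 292 and 284 CPM with JQ1, against 356 and 309 CPM with DMSO (-0.21), and neither passed the test. PRDM1 lay above the DMSO libraries in both JQ1 libraries and was called with the RPMI8226 libraries alone (edgeR, Benjamini-Hochberg adjusted p = 0.0175). It was also called without a filter on low counts and with the replicate block. B cell markers, already low in this line, were lower in 5 of 9 cases tested (3 without JQ1 library 2 or DMSO library 1), among them FCER2 at -4.41, CD79A at -2.31 and BLK at -1.22. Myeloid markers were lower in 4 of 5 (2 without JQ1 library 1 or DMSO library 1), ITGAM at -2.55 among them, and markers of T and NK cells in 3 of 9, CD2 at -2.44 among them. Many of these markers were near the floor. Of those with at least 1 CPM, 4 of 6 B cell, 3 of 3 myeloid and 1 of 4 T and NK markers were lower, beside 22.1% of expressed genes. The part of these markers in the plasma cell result was not tested.

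MAF itself was not called, and more of the genes grouped with it in myeloma fell than rose. MAF was at 0.01 (SE 0.15), with overlapping libraries. The cyclin CCND2 had 1236 and 1229.8 CPM with JQ1, against 1042 and 1106 CPM with DMSO (0.20) and the integrin ITGB7 7185 and 6154 CPM with JQ1, against 4652 and 3752 CPM with DMSO (0.67), 2 genes known to be raised by MAF in myeloma, and neither was called. Both genes stood higher in both JQ1 libraries than in either DMSO library. ITGB7 was called by DESeq2, limma-voom, the replicate block and the RPMI8226 libraries alone (edgeR, Benjamini-Hochberg adjusted p = 0.0016 in the last). In the MAF list 8 of 19 (42.1%) fell (5 without DMSO library 1) and 2 (10.5%) rose (1 without JQ1 library 1 or DMSO library 1 and 0 without DMSO library 2), with a median of 0.01. The secreted phosphoprotein SPP1 had 8.35 and 14.5 CPM with JQ1, against 78.5 and 134 CPM with DMSO, and fell by 3.23 (SE 0.34, Benjamini-Hochberg adjusted p = 0.000381 by edgeR). The small MAF protein MAFF had 4.93 and 5.17 CPM with JQ1, against 24.3 and 24.4 CPM with DMSO, and fell by 2.27. The fractalkine receptor CX3CR1 (-1.71) and the small GTPase gene RND3 (-1.06) fell too. The MYC gene had 345 and 312 CPM with JQ1, against 529.6 and 437 CPM with DMSO, and fell by 0.56 (SE 0.19, Benjamini-Hochberg adjusted p = 0.041 by edgeR). This call was lost with library sizes alone (0.057) and without JQ1 library 1 (0.104), JQ1 library 2 (0.189) or DMSO library 1 (0.216), with edgeR's Benjamini-Hochberg adjusted p in parentheses. Of the MAX partners, MGA, MXD4 and MXD3 rose by 0.46, 0.67 and 0.84, and MXI1 fell by 0.53. The MXD3 call was lost without JQ1 library 1 (0.0677), and that of MXI1 without JQ1 library 1 (0.0645) or DMSO library 1 (0.0671), by the same test.

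Genes of ribosome assembly and translation changed in small numbers and by small amounts. Of 56 nucleolar and ribosome assembly genes linked to MYC, 6 (10.7%) rose (3 without DMSO library 1 or DMSO library 2) and 8 (14.3%) fell (5 without JQ1 library 1, 4 without JQ1 library 2 or DMSO library 1 and 3 without DMSO library 2), with a median of -0.03. NOP56, a box C/D snoRNP protein, rose by 0.82, RRP1B by 0.57 and BOP1, which serves large subunit assembly, by 0.62, while the helicase DDX21 fell by 0.54. Cytosolic ribosomal protein genes fell in 24 of 78 (30.8%) cases and rose in 0, and the lowest log2 fold change among them was -0.70. RPL21, of the large subunit, had 46.02 and 56.1 CPM with JQ1, against 74.8 and 91.1 CPM with DMSO. The lower count was 4 without JQ1 library 1, 38 without JQ1 library 2, 12 without DMSO library 1 and 8 without DMSO library 2. Of the translation factors and aminoacyl-tRNA synthetases 11 of 43 (25.6%) fell (4 without JQ1 library 1 and 6 without DMSO library 2) and 5 (11.6%) rose (2 without DMSO library 1 and 3 without DMSO library 2). The leucyl and valyl synthetase genes LARS1 (-0.78) and VARS1 (-0.64) and the initiation factor gene EIF3E (-0.59) fell, against a rise of 0.59 for the histidyl synthetase gene HARS1.

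Genes of S phase rose together. Of 71 genes of the G1/S transition and DNA replication 47 (66.2%) were called higher (29 without JQ1 library 2, 23 without DMSO library 1 and 31 without DMSO library 2) and 2 (2.82%) lower. Their median was 0.75, and 18.8% of expressed genes rose. PRIM2, of the primase, had 32.9 and 36.2 CPM with JQ1, against 15.3 and 16.9 CPM with DMSO, a rise of 1.10 (SE 0.14, Benjamini-Hochberg adjusted p = 8.32e-06 by edgeR). Geminin (GMNN), which restrains origin licensing, had 31.2 and 34.5 CPM with JQ1, against 13.9 and 13.3 CPM with DMSO (1.27). The JQ1 libraries were about 2-fold above the DMSO libraries for each of them. The replication checkpoint adaptor CLSPN, and cyclin E1 (CCNE1), named here after their values were seen, rose by 2.46 and 2.10. The 2 falls were in G1 regulators: cyclin D1 (CCND1) had 13.4 and 11.2 CPM with JQ1, against 30.9 and 29.5 CPM with DMSO, and fell by 1.29 (SE 0.12, Benjamini-Hochberg adjusted p = 4.5e-07 by edgeR). Its partner kinase CDK6, chosen after its values were seen, fell by 0.52. DNA repair genes rose in 25 of 44 (56.8%) cases and fell in 3 (6.82%, 1 without JQ1 library 1 or DMSO library 2). The mismatch repair gene MSH6 rose by 0.76, the recombination genes RAD51C and XRCC3 by 1.02 and 0.94, and FANCE, of the Fanconi anaemia complex, by 1.13.

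Mitotic genes had a median of 0.72, close to that of the S phase list, but 7 of 69 (10.1%) passed the test and 0 fell. CENPI, of the inner kinetochore, had 34.9 and 27.98 CPM with JQ1, against 12.7 and 9.81 CPM with DMSO (1.49), and CENPN, of the same complex, 15.6 and 21.1 CPM with JQ1, against 9.13 and 7.28 CPM with DMSO (1.16). Cyclin F (CCNF) had 69.5 and 54.4 CPM with JQ1, against 29.3 and 21.97 CPM with DMSO (1.28), and the kinase partner CKS2 16.7 and 12.4 CPM with JQ1, against 8.29 and 7.61 CPM with DMSO (0.87). Both JQ1 libraries were above both DMSO libraries in these 4 genes. With edgeR's Benjamini-Hochberg adjusted p in parentheses, the call was lost for CENPI without JQ1 library 1 (0.0758), DMSO library 1 (0.0518) or DMSO library 2 (0.111), for CENPN without JQ1 library 2 (0.101) or DMSO library 2 (0.124), for CKS2 without JQ1 library 1 (0.233), DMSO library 1 (0.121) or DMSO library 2 (0.179), and for CCNF without JQ1 library 1 (0.14), JQ1 library 2 (0.056), DMSO library 1 (0.0776) or DMSO library 2 (0.169). With the 4 RPMI8226 libraries alone 59 mitotic genes were called higher and by DESeq2 13, and the count was 1 without JQ1 library 1, 5 without JQ1 library 2, 2 without DMSO library 1 and 0 without DMSO library 2. The proliferation marker MKI67, named after its values were seen, had 127 and 102 CPM with JQ1, against 60.7 and 50.1 CPM with DMSO (1.04). It was not called, except with the RPMI8226 libraries alone (edgeR, Benjamini-Hochberg adjusted p = 9.5e-05).

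Replication-dependent histone genes, whose messages are made in S phase and end in a stem-loop in place of a poly(A) tail, rose in 25 of 49 (51.0%) cases tested (13 without JQ1 library 1 and 12 without DMSO library 2) and fell in 0. Their median was 1.35, and 50 of 61 members passed the filter on low counts. H3C13 had 21.1 and 14.7 CPM with JQ1, against 2.42 and 2.15 CPM with DMSO, a rise of 2.97 (SE 0.37, Benjamini-Hochberg adjusted p = 9.13e-05 by edgeR). H2AC20 had 115 and 102 CPM with JQ1, against 44.2 and 42.2 CPM with DMSO (1.33) and H2BC6 10.6 and 9.62 CPM with JQ1, against 5.04 and 4.51 CPM with DMSO (1.08), with the JQ1 libraries above in each. The histone locus factor NPAT, in the same list, rose by 0.55. With the RPMI8226 libraries alone 41 of them were called higher. Histone genes have near-identical copies, so the share of reads given to each is uncertain. Of the replacement and polyadenylated histones 8 of 11 (72.7%) rose. H2AX, which is phosphorylated at DNA breaks, had 40.3 and 31.1 CPM with JQ1, against 8.39 and 7.99 CPM with DMSO (2.13), H2AZ2 rose by 0.96, and H3-3B and H3-3A, which encode the same H3.3 protein, by 0.75 and 0.59.

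Promoter windows of the replication-dependent histone and mitotic lists were searched for known letters, over members called or not. The shares therefore describe the gene lists and not the response to JQ1. The windows run from 250 bases before to 50 bases after the start in RefSeq (GRCh38.p14), and each motif was searched on both strands. The letters TATAAA stood in 60.0% of 45 replication-dependent histone windows and CCAAT in 82.2%. In all 27305 windows the shares were 11.95% and 35.7%, and in the 12645 windows of tested genes 6.41% and 36.6%. In 58 windows of mitotic genes TTTGAA, the letters of the cell cycle homology region, stood in 70.7% and CCAAT in 72.4%. All windows had TTTGAA in 15.4% and those of tested genes in 10.4%. The windows of 2 histone and 2 mitotic genes called higher follow, to show where these letters lie, with matches in capitals (TATAAA and CCAAT for the histone genes, TTTGAA and CCAAT for the mitotic genes, or the reverse complement).
H3C13 (chr1:149813644-149813943, minus strand): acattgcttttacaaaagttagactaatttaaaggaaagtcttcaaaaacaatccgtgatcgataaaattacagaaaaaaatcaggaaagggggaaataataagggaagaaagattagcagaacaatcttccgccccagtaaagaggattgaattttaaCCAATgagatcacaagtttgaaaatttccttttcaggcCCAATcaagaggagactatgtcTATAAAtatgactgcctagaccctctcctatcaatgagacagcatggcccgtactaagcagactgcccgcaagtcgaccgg
H2AC20 (chr1:149886668-149886967, plus strand): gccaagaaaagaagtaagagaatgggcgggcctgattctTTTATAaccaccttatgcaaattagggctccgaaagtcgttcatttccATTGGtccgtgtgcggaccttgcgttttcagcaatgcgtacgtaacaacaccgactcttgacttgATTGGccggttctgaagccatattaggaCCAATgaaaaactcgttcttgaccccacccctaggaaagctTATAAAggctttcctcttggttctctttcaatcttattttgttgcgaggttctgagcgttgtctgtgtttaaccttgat
CENPN (chr16:81006964-81007263, plus strand): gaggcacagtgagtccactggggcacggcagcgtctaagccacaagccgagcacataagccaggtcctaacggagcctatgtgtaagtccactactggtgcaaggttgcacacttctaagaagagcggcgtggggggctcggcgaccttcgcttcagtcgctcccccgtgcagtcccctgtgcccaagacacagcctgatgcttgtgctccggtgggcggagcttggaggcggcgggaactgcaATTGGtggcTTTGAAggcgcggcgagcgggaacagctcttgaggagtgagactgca
CKS2 (chr9:89310945-89311244, plus strand): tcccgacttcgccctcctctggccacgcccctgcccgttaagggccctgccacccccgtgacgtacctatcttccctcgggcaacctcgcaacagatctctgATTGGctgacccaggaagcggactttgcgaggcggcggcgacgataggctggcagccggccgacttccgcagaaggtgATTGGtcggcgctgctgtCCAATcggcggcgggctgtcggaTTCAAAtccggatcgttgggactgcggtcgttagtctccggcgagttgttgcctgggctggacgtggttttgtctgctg
In H3C13 and H2AC20 a TATAAA match began 31 and 29 bases before the start. A match describes letters in the window and shows no bound factor.

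**Figure D3:**
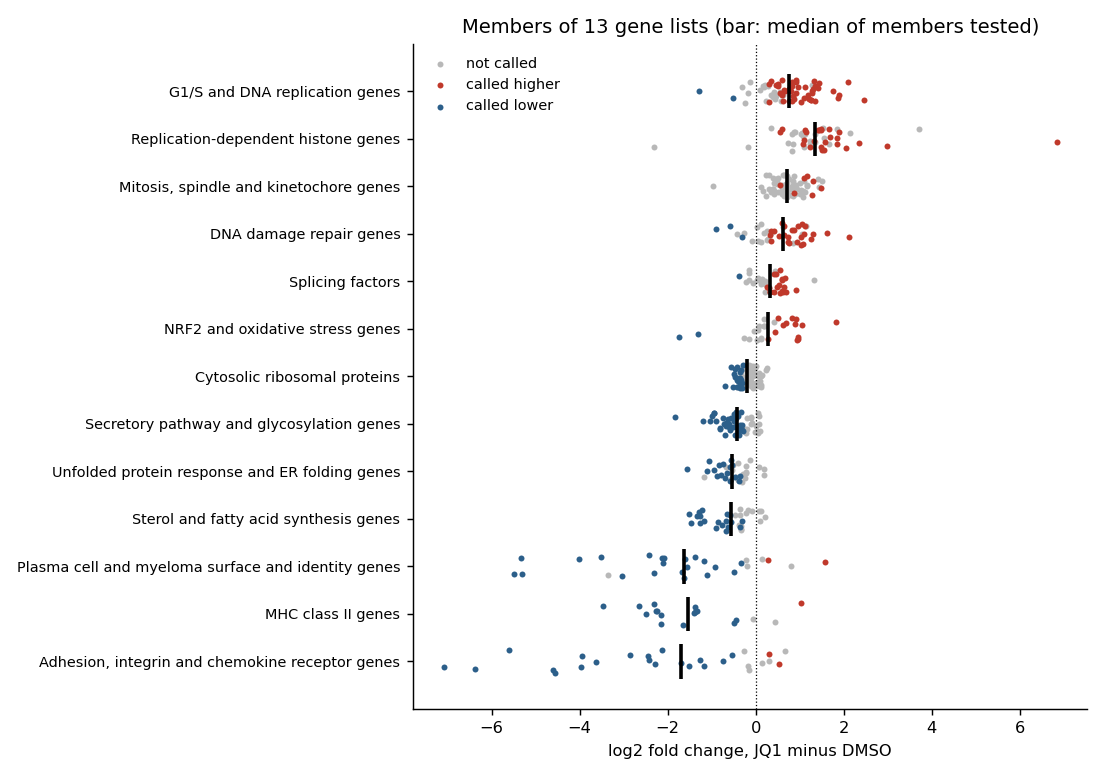
Log2 fold change of JQ1 against DMSO (horizontal axis) for the members of 13 gene lists tested with a read in RPMI8226, 1 point for each gene, red where called higher, blue where called lower and grey where not called; black bars are list medians. The medians run from 1.35 for replication-dependent histone genes to -1.69 for adhesion, integrin and chemokine receptor genes.

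Genes of the secretory pathway fell, from N-glycan transfer to vesicle traffic. Of 55 genes of the secretory pathway and glycosylation 39 (70.9%) fell (24 without JQ1 library 1) and 0 rose, with a median of -0.43. STT3A, the catalytic subunit that adds N-glycans, had 159 and 166 CPM with JQ1, against 339 and 327 CPM with DMSO, and fell by 1.04 (SE 0.10, Benjamini-Hochberg adjusted p = 3.94e-07 by edgeR). SEC24A, of the COPII coat, had 106 and 116 CPM with JQ1, against 224 and 206 CPM with DMSO (-0.95), and the retrieval receptor KDELR1 64.8 and 65.5 CPM with JQ1, against 135 and 122 CPM with DMSO (-0.98). LMAN1, which carries glycoproteins out of the endoplasmic reticulum, had 325 and 396 CPM with JQ1, against 804 and 839 CPM with DMSO (-1.19). Replicates lay close together in these genes and the treatments did not overlap. Genes of the unfolded protein response and of folding fell in 17 of 35 (48.6%) cases, none rose, and the median was -0.54. ERN1, the sensor IRE1 alpha, had 858 and 1095 CPM with JQ1, against 2057 and 2017 CPM with DMSO, and fell by 1.06 (SE 0.13, Benjamini-Hochberg adjusted p = 5.52e-06 by edgeR). EDEM1, which marks misfolded glycoproteins for disposal, fell by 0.84, and the disulfide isomerase PDIA6 (-0.79) and the retrotranslocation factor DERL1 (-0.54) fell as well. The chaperone HSPA5, named after its values were seen, had 647 and 664 CPM with JQ1, against 932 and 982 CPM with DMSO (-0.55) and was not called, except by DESeq2 and with the RPMI8226 libraries alone. In those libraries alone 26 genes of this list fell.

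Immunoglobulin heavy chain constant genes, low in this line, which is known to secrete lambda light chains, fell to a few JQ1 reads or none. Of 12 constant genes and partners tested 8 (66.7%) fell, with a median of -2.46 when genes with no JQ1 read are set at their bound. IGHG2 had 0.375 and 0.238 CPM with JQ1, against 20.5 and 17.7 CPM with DMSO (-5.90). IGHA2, IGHG4 and IGHA1 had 0 JQ1 reads and 195, 171 and 122 DMSO reads, at least 55.8-fold, 48.95-fold and 34.9-fold lower. Heavy chain genes are near copies of each other, so reads may be split among them. JCHAIN, which joins IgA and IgM subunits, had 823 and 1018 CPM with JQ1, against 2673 and 2102 CPM with DMSO, and fell by 1.38 (SE 0.17, Benjamini-Hochberg adjusted p = 2.05e-05 by edgeR). The lambda constant genes IGLC2 and IGLC3 were not called, at -0.19 and -0.12.

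Genes of lipid synthesis fell, while antioxidant genes rose. Of 33 sterol and fatty acid synthesis genes 19 (57.6%) fell (11 without DMSO library 1) and 0 rose, with a median of -0.55. FADS2, a desaturase, had 129 and 130.3 CPM with JQ1, against 411 and 308 CPM with DMSO, and fell by 1.47 (SE 0.15, Benjamini-Hochberg adjusted p = 5.31e-06 by edgeR). Falls were also called for FADS1, another desaturase (-1.30), FDPS, which makes farnesyl pyrophosphate (-1.18), and the elongase ELOVL6 (-1.22). FADS1 lies within the annotated span of FADS2 on the other strand, and the use of strand in counting is not given, so these falls may share reads. In FADS2 and SCD the DMSO libraries also differed from each other, with SCD at 637 and 718 CPM under JQ1 and 1852 and 1395 CPM under DMSO. Of the NRF2 and oxidative stress genes 13 of 27 (48.1%) rose and 2 (7.41%) fell. GCLC, the catalytic subunit for glutathione synthesis, had 113 and 106 CPM with JQ1, against 53.9 and 51.6 CPM with DMSO, a rise of 1.05 (SE 0.10, Benjamini-Hochberg adjusted p = 2.8e-07 by edgeR). The thioredoxin reductase gene TXNRD1 rose by 0.89, and NQO1, a quinone reductase named after its values were seen, by 1.84, with 30.8 and 26.3 CPM under JQ1 and 7.70 and 8.28 CPM under DMSO. Against them, the peroxiredoxin of the endoplasmic reticulum PRDX4 had 54.5 and 57.98 CPM with JQ1, against 148 and 132 CPM with DMSO, and fell by 1.32, and the glutathione peroxidase GPX1 fell by 1.75.

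Other metabolic groups were mixed. Genes of glycolysis and hypoxia fell in 11 of 35 (31.4%) cases (5 without JQ1 library 1 or DMSO library 1 and 6 without DMSO library 2) and rose in 5 (14.3%, 2 without JQ1 library 2 and 3 without DMSO library 1 or DMSO library 2). CA9, a carbonic anhydrase induced by hypoxia, had 5.44 and 7.90 CPM with JQ1, against 38.8 and 37.03 CPM with DMSO, and fell by 2.51 (SE 0.22, Benjamini-Hochberg adjusted p = 5.91e-07 by edgeR). The lactate transporter SLC16A1 and the hexokinase HK1 rose by 0.76 and 2.06. Of the ATF4, serine and amino acid transport genes 5 of 34 (14.7%) fell (3 without JQ1 library 1, DMSO library 1 or DMSO library 2) and 1 (2.94%) rose (2 without JQ1 library 1 and 0 without DMSO library 1). With the RPMI8226 libraries alone 16 fell and 5 rose. The glutamine transporter SLC38A5 had 4.27 and 6.48 CPM with JQ1, against 97.4 and 95.7 CPM with DMSO, and fell by 4.18 (SE 0.17, Benjamini-Hochberg adjusted p = 6.75e-11 by edgeR). CTH, of cysteine synthesis, had 21.8 and 36.2 CPM with JQ1, against 69.9 and 76.5 CPM with DMSO (-1.34), and TRIB3, a pseudokinase induced by ATF4, fell by 1.73, a call lost in the RPMI8226 libraries alone (edgeR, Benjamini-Hochberg adjusted p = 0.0523). SHMT1, of serine and glycine exchange, rose by 0.67, a call lost without DMSO library 1 (0.0715), by the same test. Nuclear-encoded respiratory chain genes rose in 14 of 63 (22.2%) cases (5 without JQ1 library 1 or DMSO library 2) and fell in 5 (7.94%, 3 without JQ1 library 1, JQ1 library 2 or DMSO library 1). NDUFS1 (-0.43), of complex I, and UQCRH (-0.57), of complex III, fell, and the transcription factor NRF1 rose by 0.64. Of the 13 mitochondrially encoded genes, edgeR called 0 in the fit to all libraries and 4 higher in the RPMI8226 libraries alone, DESeq2 called 0, 6 were called higher without a filter on low counts, and 1 had an unadjusted p under 0.05.

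In the lysosome and autophagy list 16 of 53 (30.2%) fell (9 without JQ1 library 1, DMSO library 1 or DMSO library 2 and 10 without JQ1 library 2) and 7 (13.2%) rose (4 without DMSO library 1). The cysteine protease CTSS had 19.5 and 27.3 CPM with JQ1, against 259.9 and 258 CPM with DMSO, and fell by 3.47 (SE 0.14, Benjamini-Hochberg adjusted p = 4.04e-11 by edgeR). WIPI1, an early autophagy factor, had 44.8 and 53.3 CPM with JQ1, against 157 and 158 CPM with DMSO (-1.68), while the proton pump subunit gene ATP6V0D1 rose by 0.92, with 115 and 111 CPM under JQ1 and 59.5 and 59.99 CPM under DMSO. In both falls and in this rise the treatments did not overlap.

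Genes of antigen presentation through MHC class II fell almost as a whole. Of 18 class II genes 15 (83.3%) fell and 1 (5.56%) rose (0 without JQ1 library 1 or DMSO library 2), with a median of -1.53, against 22.1% lower among expressed genes. HLA-DRA, the shared alpha chain of HLA-DR, had 26.4 and 34.2 CPM with JQ1, against 151 and 141 CPM with DMSO, and fell by 2.27 (SE 0.15, Benjamini-Hochberg adjusted p = 7.22e-09 by edgeR). HLA-DQA1 had 4.69 and 5.88 CPM with JQ1, against 28.5 and 23.7 CPM with DMSO (-2.31), and HLA-DMA, which loads peptides, 4.93 and 3.80 CPM with JQ1, against 19.3 and 19.9 CPM with DMSO (-2.16). Both JQ1 libraries were far below both DMSO libraries in all 3 genes. The class II transactivator CIITA, named after its values were seen, had 15.5 and 14.4 CPM with JQ1, against 82.1 and 87.6 CPM with DMSO, and fell by 2.50 (SE 0.35, Benjamini-Hochberg adjusted p = 0.00095 by edgeR). CD74, the invariant chain, also named so, had 1267 and 1092 CPM under JQ1 and 1796 and 1501 CPM under DMSO, and fell by 0.48, a call lost without DMSO library 1 (0.0611) by the same test. Of the class I genes 11 of 17 (64.7%) were called lower (6 without JQ1 library 2 or DMSO library 1) and 0 higher, with a median of -0.54. HLA-B had 1689 and 1355 CPM with JQ1, against 2419 and 2087 CPM with DMSO (-0.57), and HLA-C (-0.61), the loading gene TAPBPL (-1.16) and the trimming gene ERAP2 (-0.95) fell as well. CCAAT, read as ATTGG on the other strand, is part of the conserved class II promoter module. At any place and on either strand it stood in 80.0% of 15 class II windows, against 36.6% of the windows of tested genes. Every match is in capitals in the windows of 2 class II genes called lower. The matches began 79 and 49 bases before the start in HLA-DMA and 222 and 68 bases before it in HLA-DQA1. Which of them belong to the module was not tested.
HLA-DMA (chr6:32953048-32953347, minus strand): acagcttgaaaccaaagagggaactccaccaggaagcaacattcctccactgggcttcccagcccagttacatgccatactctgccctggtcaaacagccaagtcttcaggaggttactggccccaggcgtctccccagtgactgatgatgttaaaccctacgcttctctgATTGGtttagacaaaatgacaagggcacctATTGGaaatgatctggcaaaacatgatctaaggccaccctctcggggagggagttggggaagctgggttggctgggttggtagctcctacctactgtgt
HLA-DQA1 (chr6:32637156-32637455, plus strand): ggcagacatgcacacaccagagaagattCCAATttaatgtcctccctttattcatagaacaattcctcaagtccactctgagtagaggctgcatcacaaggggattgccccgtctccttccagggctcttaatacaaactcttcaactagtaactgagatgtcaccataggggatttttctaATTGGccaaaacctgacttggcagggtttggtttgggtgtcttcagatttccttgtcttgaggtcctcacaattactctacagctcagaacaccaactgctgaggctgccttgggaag

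Adhesion and homing genes fell, many of them severalfold. Of 27 integrins, adhesion molecules and chemokine receptors tested 19 (70.4%) fell and 2 (7.41%) rose (1 without JQ1 library 2, DMSO library 1 or DMSO library 2), with a median of -1.69. CCR2, the monocyte chemokine receptor, had 0.797 and 0.95 CPM with JQ1, against 78.5 and 66.7 CPM with DMSO, and fell by 6.38 (SE 0.26, Benjamini-Hochberg adjusted p = 2.52e-10 by edgeR). ITGA4, the alpha chain that pairs with ITGB7 in homing and with ITGB1 in marrow adhesion, had 24.9 and 24.1 CPM with JQ1, against 144 and 117 CPM with DMSO (-2.41). The leukocyte integrin chain ITGB2 had 5.82 and 5.29 CPM with JQ1, against 43.3 and 36.9 CPM with DMSO (-2.85), and ICAM3 fell by 1.51. Within each treatment the libraries were close, and the treatments did not overlap. The endothelial and leukocyte adhesion gene PECAM1, which is also in the list of stromal, endothelial and epithelial markers, fell by 4.61, and EPCAM fell by 0.82. Of the members of that marker list with at least 1 CPM, 2 of 5 were called lower, beside 22.1% of expressed genes. The sum of that marker list was 496 and 544 CPM in the JQ1 libraries and 509 and 499 CPM in the DMSO libraries, most of it VIM, and 4 of 7 members were called lower (2 without JQ1 library 1).

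Cytokine signalling genes fell more often than they rose. Of 23 genes of IL6, JAK-STAT and PIM signalling 12 (52.2%) fell and 2 (8.70%) rose (1 without JQ1 library 1 or DMSO library 2, 4 without JQ1 library 2 and 0 without DMSO library 1), with a median of -0.57. The cytokine IL10 had 0.188 and 0.119 CPM with JQ1, against 3.11 and 5.21 CPM with DMSO (-4.69). CISH, a feedback inhibitor of STAT5, had 6.57 and 6.48 CPM with JQ1, against 22.8 and 22.1 CPM with DMSO (-1.78), and IL2RG, the shared gamma chain, fell by 0.81. In the NF-kB list 14 of 35 (40%) fell and 4 (11.4%) rose (2 without JQ1 library 1 or DMSO library 2). TNFAIP8, induced by TNF, had 47.9 and 57.6 CPM with JQ1, against 147 and 135 CPM with DMSO (-1.42), and PLEK, the protein kinase C substrate pleckstrin, 57.04 and 87.2 CPM with JQ1, against 301 and 263 CPM with DMSO (-1.97). The chemokine CXCL8 had 1.13 and 3.09 CPM with JQ1, against 13.7 and 24.4 CPM with DMSO (-3.21). NFKBIA, the inhibitor that NF-kB itself induces, went the other way, with 97.8 and 93.98 CPM with JQ1, against 60.9 and 57.7 CPM with DMSO, a rise of 0.69 (SE 0.10, Benjamini-Hochberg adjusted p = 3.33e-05 by edgeR). The JQ1 libraries of CXCL8 differed from each other by more than 2-fold but stayed below both DMSO libraries.

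FLI1, the ETS factor the series is concerned with, had 54.5 and 47.05 CPM with JQ1, against 86.6 and 71.4 CPM with DMSO, and fell by 0.64 (SE 0.14, Benjamini-Hochberg adjusted p = 0.00303 by edgeR). The ETS family fell in 6 of 20 (30%) cases and rose in 1 (5%), against 22.1% lower and 18.8% higher among expressed genes. ETV4, of the PEA3 group, had 10.4 and 11.4 CPM with JQ1, against 40.1 and 32.5 CPM with DMSO (-1.73), and SPI1, the factor PU.1, 6.66 and 6.83 CPM with JQ1, against 21.8 and 16.5 CPM with DMSO (-1.50), while ETS1 rose by 1.59, with 10.5 and 8.67 CPM under JQ1 and 2.32 and 3.97 CPM under DMSO. Immediate early and AP-1 genes fell in 10 of 24 (41.7%) cases and rose in 3 (12.5%, 1 without DMSO library 1 or DMSO library 2). All 3 NR4A nuclear receptors fell. NR4A1 had 6.94 and 6.48 CPM with JQ1, against 57.2 and 55.8 CPM with DMSO (-3.07), NR4A3 0.469 and 0.772 CPM with JQ1, against 8.44 and 7.16 CPM with DMSO (-3.67) and NR4A2 8.12 and 6.59 CPM with JQ1, against 30.6 and 31.5 CPM with DMSO (-2.07). FOSL2, an AP-1 subunit, had 18.1 and 16.04 CPM with JQ1, against 112 and 95.7 CPM with DMSO, and fell by 2.60 (SE 0.15, Benjamini-Hochberg adjusted p = 1.5e-09 by edgeR). Of the MAP kinase phosphatases, kinases and feedback genes 7 of 25 (28%) fell (4 without DMSO library 1) and 3 (12%) rose (1 without JQ1 library 1, DMSO library 1 or DMSO library 2). Of the p38 family, MAPK13 had 15.6 and 12.4 CPM under JQ1 and 53.9 and 54.1 CPM under DMSO (-1.94), and MAPK11 (-1.32) and MAPK12 (-0.86) fell with it.

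Splicing factor genes rose in 19 of 36 (52.8%) cases and fell in 1 (2.78%, 0 without JQ1 library 1, DMSO library 1 or DMSO library 2), with a median of 0.32, and 0 of the rises reached 2-fold. SRSF6, an SR protein, had 233 and 226 CPM with JQ1, against 122 and 120.3 CPM with DMSO, a rise of 0.92 (SE 0.09, Benjamini-Hochberg adjusted p = 7.38e-07 by edgeR). CLK2, a kinase of SR proteins, rose by 0.62, SF3A1, of the U2 particle, by 0.60 and U2AF2, which binds the polypyrimidine tract, by 0.59. Heat shock and cytosolic chaperone genes rose in 10 of 34 (29.4%) cases and fell in 5 (14.7%, 3 without DMSO library 2). Clusterin (CLU), a secreted chaperone, had 39.8 and 46.3 CPM with JQ1, against 14.1 and 11.96 CPM with DMSO (1.73), HSPA8 and its partner DNAJA1 rose by 0.55 and 0.68, and the cochaperone FKBP4 fell by 0.72. Proteasome genes rose in 5 of 40 (12.5%) cases and fell in 3 (7.5%, 0 without JQ1 library 1 or DMSO library 2), below the share of expressed genes in both directions. The subunits with the smallest p were PSMD2, PSMC5, PSMD1 and PSMD3, which rose by between 0.45 and 0.82.

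The BCL2 family was called in each direction about as often as expressed genes were. Of 16 members 3 (18.8%) rose (1 without JQ1 library 1 or DMSO library 2 and 5 without JQ1 library 2) and 3 (18.8%) fell (1 without JQ1 library 2). BCL2, which protects mitochondria, had 432 and 375 CPM with JQ1, against 613 and 590.4 CPM with DMSO, and fell by 0.58 (SE 0.10, Benjamini-Hochberg adjusted p = 0.000325 by edgeR), and MCL1, on which plasma cells rely, 519 and 435 CPM with JQ1, against 651 and 659 CPM with DMSO (-0.46). Of the BH3-only death promoters, HRK had 13.5 and 9.98 CPM with JQ1, against 4.49 and 3.10 CPM with DMSO (1.64), and BCL2L11 (BIM) 286 and 249 CPM with JQ1, against 201 and 182 CPM with DMSO (0.48). With edgeR's Benjamini-Hochberg adjusted p in parentheses, the MCL1 call was lost without JQ1 library 2 (0.061), and that of BCL2L11 without JQ1 library 1 (0.0553) or DMSO library 2 (0.0579). BCL2L1, which encodes BCL-XL and was named after its values were seen, had 122 and 86.3 CPM with JQ1, against 41.7 and 35.3 CPM with DMSO, a rise of 1.43 (SE 0.35, Benjamini-Hochberg adjusted p = 0.0197 by edgeR), and its call was lost without JQ1 library 1 (0.0955), DMSO library 1 (0.0728) or DMSO library 2 (0.111). Among death receptor and apoptosis genes 7 of 23 (30.4%) rose (3 without JQ1 library 1 or DMSO library 2) and 5 (21.7%) fell. Falls were called for CASP10 (-0.81), the TNF receptor gene TNFRSF1A (-0.97) and the caspase inhibitor gene XIAP (-0.63), while CASP2 rose by 0.65. The CDK inhibitor CDKN1A, a p53 target, had 125 and 112 CPM with JQ1, against 126 and 97.8 CPM with DMSO (0.08) and CDKN1C 20.5 and 10.2 CPM with JQ1, against 11.7 and 7.32 CPM with DMSO (0.71), and neither was called. CDKN1C was called higher without JQ1 library 2, at 1.12 (edgeR, Benjamini-Hochberg adjusted p = 0.0206), and with the replicate block (0.00833, by the same test). Of 32 CDK inhibitors and p53 targets 6 (18.8%) rose (3 without JQ1 library 1) and 6 (18.8%) fell (3 without JQ1 library 2, DMSO library 1 or DMSO library 2), shares no higher than those of expressed genes. SESN3, a sestrin that FOXO factors induce, had 47.6 and 40.4 CPM with JQ1, against 7.95 and 6.74 CPM with DMSO, a rise of 2.59 (SE 0.15, Benjamini-Hochberg adjusted p = 3.25e-09 by edgeR). GADD45B and PPM1D rose by 0.59 and 0.62, and the TRAIL receptor TNFRSF10B fell by 0.82, and the GADD45B call was lost without JQ1 library 1 (0.0536) by the same test.

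Long non-coding RNA genes fell in 7 of 25 (28%) cases in the list of well-studied ones (4 without DMSO library 2) and rose in 3 (12%), and others were at or near 0 with JQ1. LINC00582, also called SMILO (ENSG00000229228; chromosome 1, 231591292 to 231612090, minus strand), the transcript the series is named for, had 0 JQ1 reads and 19 DMSO reads. Its level was at least 5.44-fold lower (edgeR, Benjamini-Hochberg adjusted p = 0.0133), a call lost without JQ1 library 1 (0.0812), JQ1 library 2 (0.0538) or DMSO library 2 (0.08). MIR223HG, host of the myeloid microRNA miR-223, had 0 and 0.0594 CPM with JQ1, against 5.48 and 6.16 CPM with DMSO (-7.51). LINC01754 had 2 JQ1 reads and 414 DMSO reads, LINC02397 1 JQ1 and 138 DMSO reads, and COPDA1 1 JQ1 and 130 DMSO reads. COPDA1 lies between IGHG2 and IGHA1 on the same strand, among the heavy chain constant genes that fell. Whether its reads belong to heavy chain transcripts was not tested. SLC30A4-AS1 had 0 JQ1 and 124 DMSO reads, at least 35.5-fold lower. In both JQ1 libraries these transcripts were at or under the floor of 3 counts. LINC-PINT, a p53-linked RNA, had 154 and 176 CPM with JQ1, against 319 and 339 CPM with DMSO (-0.99), UCA1 (-3.35) and MIR4435-2HG (-0.55) fell, and DLEU2 rose by 0.59. MALAT1 and NEAT1, named after their values were seen, rose by 0.60 each, with 0.53 to 0.66 and 0.43 to 0.77 over the alternatives. Not every alternative kept these calls. The list of well-studied ones summed to 84014 and 76621 CPM with JQ1, against 53748 and 54701 CPM with DMSO. Long non-coding RNA genes as a class held 12.2% and 11.6% of the counts with JQ1, against 9.42% and 9.85% with DMSO. Among the rises, LINC02175 had 11.4 and 8.61 CPM with JQ1, against 1.63 and 1.32 CPM with DMSO (2.77), LINC01419 2.16 and 3.50 CPM with JQ1, against 0.148 and 0.414 CPM with DMSO (3.25), PLCG1-AS1 rose by 2.34 and CCNT2-AS1 by 2.24. CCNT2-AS1 and PLCG1-AS1, and SLC30A4-AS1 among the falls, are named as antisense to another gene. Because the use of strand in counting is not given, their reads cannot be told from those of the sense gene. Of the snoRNA host genes, 3 (14.3%) rose (1 without JQ1 library 1 or DMSO library 2) and 2 (9.52%) fell (1 without JQ1 library 1 or DMSO library 1 and 0 without DMSO library 2) of 21, and SNHG1 rose by 0.62, with 204 and 208 CPM under JQ1 and 132 and 136 CPM under DMSO.

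**Figure D4:**
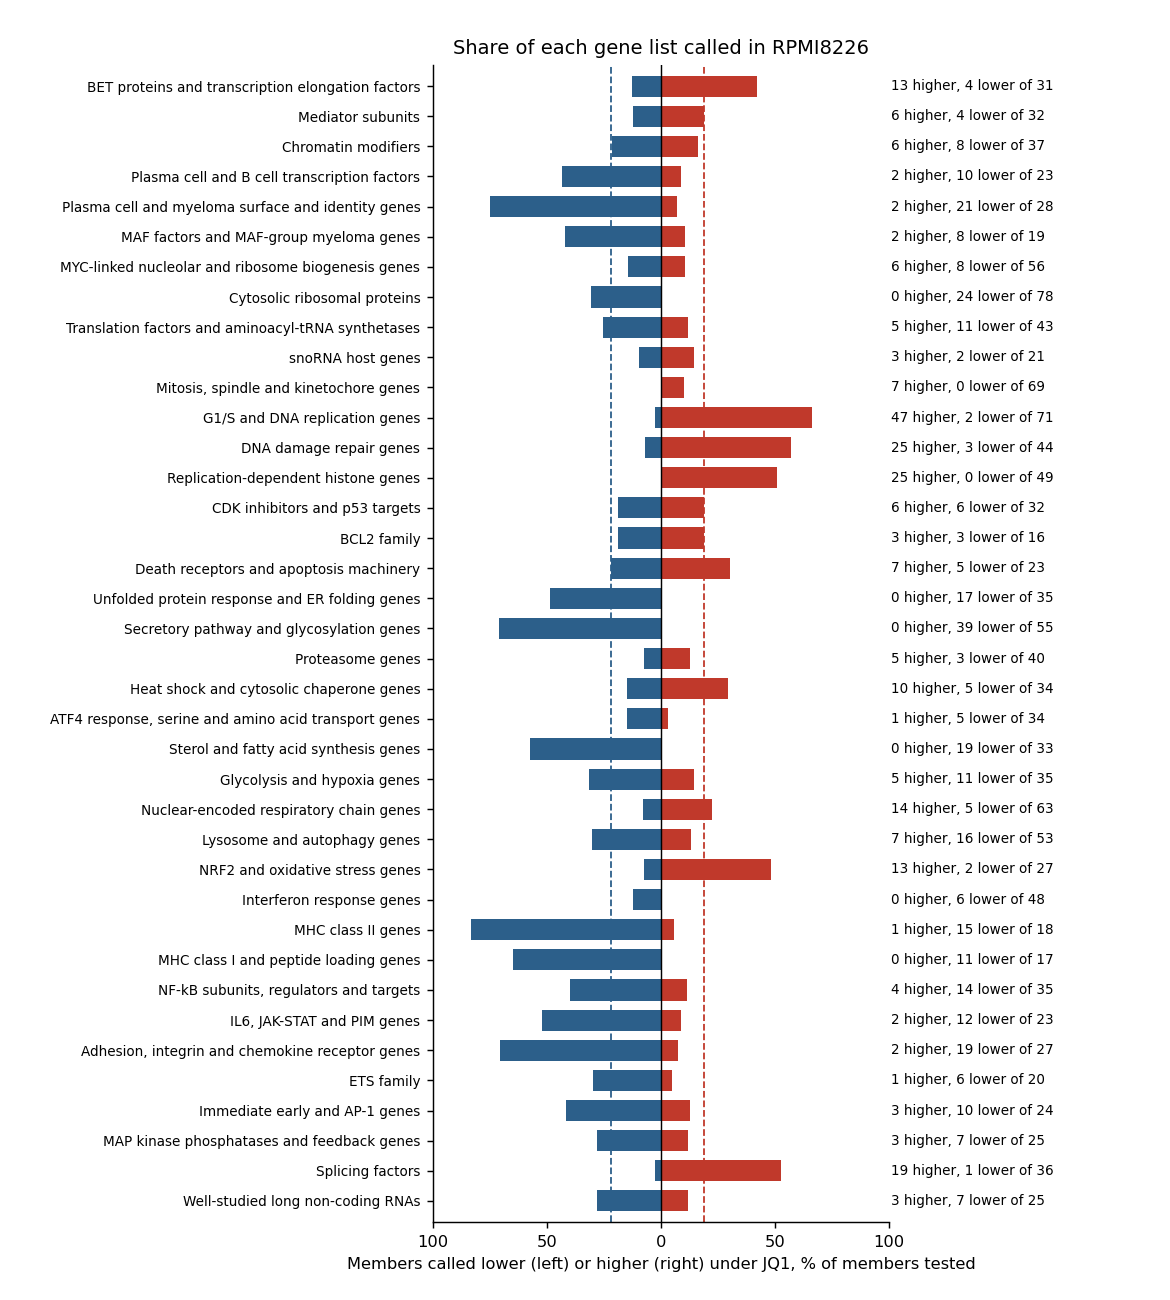
Share of the tested members of each gene list with at least 15 members that were called lower (blue, left) or higher (red, right) under JQ1 in RPMI8226, in percent, with counts at the right; dashed lines mark the shares among genes with a mean of at least 1 CPM (22.1% lower, 18.8% higher). Lists of S phase, DNA repair, histone, splicing and antioxidant genes pass the red line, and those of plasma cell identity, MHC class II, adhesion and secretory genes pass the blue line.

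Interferon response genes differed more between the 2 JQ1 libraries than between treatments. Of 48 tested 6 (12.5%) fell and 0 rose (median -0.11). IFI44L, an antiviral gene, had 135 and 1.37 CPM with JQ1, against 125 and 24.1 CPM with DMSO (-0.11), and MX1, a GTPase against viruses, 301 and 16.3 CPM with JQ1, against 243 and 98.6 CPM with DMSO (-0.10). For these 2 genes, picked to show the spread after their values were seen, the JQ1 libraries bracketed the DMSO libraries, with library 1 highest and library 2 lowest. The same order held in 25 of the 42 members with at least 1 CPM in each library, against 504 of 14443 genes in all. In the median member, JQ1 library 1 was 3.77-fold above JQ1 library 2, and DMSO library 1 1.43-fold above DMSO library 2. Without JQ1 library 1, 34 fell, MX1 among them, and 0 rose (median -1.82). Without JQ1 library 2, 5 fell and 11 rose (median 0.45). Of the members called with both libraries, ISG20, an exonuclease, had 9.76 and 5.52 CPM with JQ1, against 44.6 and 36.2 CPM with DMSO (-2.38), and the guanylate binding proteins GBP2 (-2.14) and GBP1 (-1.91) and the membrane protein IFITM2 (-3.28) fell as well. In these 4 both JQ1 libraries were below both DMSO libraries, and the calls held in every alternative that tested the gene.

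**Figure D5:**
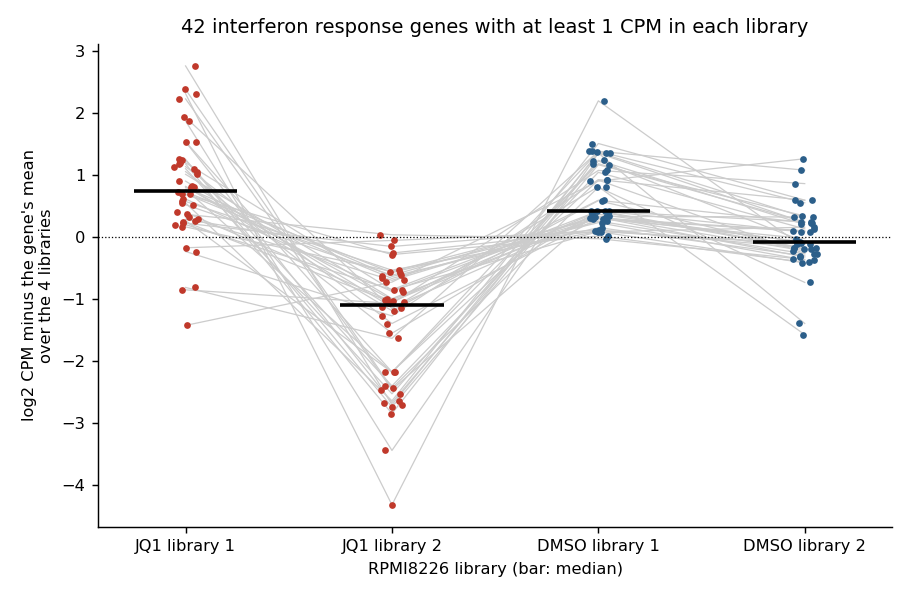
Deviation of 42 interferon response genes from each gene's mean over the 4 RPMI8226 libraries (log2 CPM), 1 point for each gene and library, lines joining a gene, JQ1 in red and DMSO in blue, black bars at medians. The medians are 0.744 and -1.10 in JQ1 libraries 1 and 2 and 0.422 and -0.0814 in DMSO libraries 1 and 2.

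Promoters of the genes that changed 2-fold or more differed by direction in some of the letters searched and not in others. Of 386 windows of genes that rose by 2-fold or more with at least 1 CPM, 44.8% held CCAAT, against 30.3% of 1131 windows of genes that fell and 38.3% of 5810 windows of genes that were not called. For TGANTCA, the AP-1 site with N any base, the shares were 2.85%, 8.49% and 4.23%. For the ETS letters CCGGAAGT they were 5.18%, 1.59% and 10.4%, and for the GC box GGGCGG 69.2%, 54.1% and 69.9%. The CCGGAAGT share was thus under that of genes not called in both directions. TATAAA was above it in both, at 11.7% for genes that rose, 9.46% for those that fell and 5.37% for those not called. In the same order, the shares were 12.2%, 12.4% and 10.1% for TTTGAA and 8.29%, 9.28% and 10.7% for the E-box CACGTG. In all 27305 windows TGANTCA stood in 7.76%, CCGGAAGT in 4.44% and GGGCGG in 44.6%. The median number of CpG dinucleotides in a window was 27 for genes that rose, 17 for those that fell and 26 for those not called. These shares are descriptions of a 300-base window, with no test.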

How the data were processed

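Per the labels' protocols, ribosomal RNA was removed from total RNA before stranded libraries were prepared. The values are the authors' deposited read counts for 60666 Ensembl gene IDs in 12 libraries, not normalized. Per the submitters' processing notes, the builds were hg38 and GRCh38.p13 and the tools included DESeq2 and MACS2, with their roles unstated. Which aligner, counter and annotation release were used, and whether counting was by strand, is not given in the sources used here, so counts of overlapping, antisense or near-identical genes are uncertain. The table pairs 60437 IDs with names, and 58420 IDs were found in GENCODE 29, which gave gene classes and GRCh38 positions. Promoter sequences are RefSeq's (GRCh38.p14).

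From the counts, edgeR 4.0.16 (R 4.3.3) was run with TMM scaling and its filter on low counts (minimum 10, minimum total 15), which kept 23493 genes. A robust quasi-likelihood model with 1 mean per group (6 groups) used all 12 libraries for the spread, and only JQ1 minus DMSO in RPMI8226 was read. The threshold for a call was 0.05 on the p-value after Benjamini-Hochberg adjustment over all genes tested. A standard error (SE) was taken as the size of the log2 fold change over the root of the F statistic. On simulated counts 22.39% of 1.5-fold, 65.67% of 2-fold and 93.94% of 4-fold changes were recovered, with 7.634% of 131 calls false. That simulation changed a small part of 22480 genes, all with at least 1 CPM and as many up as down. In the data 7574 of 23493 genes were called and large falls outnumbered large rises, so these rates need not hold for the contrast. The 14 alternatives include DESeq2 1.42.0 and limma-voom (limma 3.58.1). The 2 replicates of a treatment differed beyond sampling noise, with chi-square per degree of freedom of 11.8 with JQ1 and 7.20 with DMSO.

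Named genes are the 12 largest rises and falls with at least 1 CPM and no overlap between treatments, the 5 largest of each among long non-coding RNA genes, the 8 most abundant called by 2-fold in each direction, up to 4 called members of each list by smallest adjusted p, 20 genes always named, and cell type markers. Genes outside the rule are marked in the text, and a few that the rule chose are not reported. The contrast, the members and the gene lists were chosen with earlier results of these data known. The lists matched 1550 of 1554 entries.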

Additional observations from a re-analysis of the deposited data

How the results depend on the processing

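Under all 14 alternatives no gene called in both fits changed direction, and the median log2 fold change of expressed genes stayed between -0.0411 and 0.0212. Against a change of 1.5-fold, 592 genes were called higher and 2006 lower, 472 of the higher ones by 2-fold or more; fewer calls follow from that test's construction. In a refit to the 9907 genes with a mean of at least 10 CPM, 2271 were called higher and 2525 lower. Of these, 265 were higher and 704 lower by 2-fold or more. Without each library in turn, 2031 to 2562 genes were called higher and 3065 to 3421 lower, 565 to 760 higher and 2025 to 2240 lower by 2-fold or more. The counts were within 1.5 times of the reported ones under the other alternatives. Of 236 named genes called, 145 were called under all alternatives, 60 were lost only against 1.5-fold (log2 fold changes up to 0.89) and 31 under another alternative; the cause was not tested. Of 1316 list counts under alternatives, 1064 were within 1.5 times, and 27 of 658 list medians changed sign.

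Replicate numbers were not taken as pairing. Same-numbered libraries deviated together with a correlation of 0.266 in RPMI8226, 0.148 in KMS-11 and 0.0304 in KMS-12. With the replicate number as a block, 3652 genes were called higher and 4769 lower, 817 and 2637 of them by 2-fold or more. In the mitotic list the block gave 29 higher calls.

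The libraries were sequenced to between 15424512 and 21728530 counts, and the median standard error was 0.323 between 1 and 10 CPM, so changes under 2-fold in that range were mostly not detectable.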
